A study of Mus musculus with 18 samples.

Results

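The peaks described here are the places where an H3K27ac peak and an H3K27me3 peak were called over the same bases of the genome in wild-type (WT) bone marrow-derived macrophages (BMDM). Members were chosen by measured peak positions: every WT H3K27ac peak on chromosomes 1 to 19 that shares at least 1 bp with a WT H3K27me3 peak. There were 339 of them among 14962 WT H3K27ac peaks (2.27%, 95% Wilson interval 2.04 to 2.52%), and they touched 332 of 28024 WT H3K27me3 peaks. They are called doubly marked peaks, which refers to the WT lists and not to single nucleosomes or cells. The overlap came to 297000 bp, or 0.936% of the bases under WT H3K27ac and 0.118% of those under WT H3K27me3. Since WT positions made the choice, what the WT lists show of them is a description.

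Lysine 27 of histone H3 carries either an acetyl group or methyl groups, never both at once. H3K27ac marks active promoters and enhancers in macrophages as in other cells, whereas H3K27me3 is laid down by Polycomb repressive complexes and spreads over silent genes in broad domains. A peak list pools many cells and both copies of each chromosome, so that both marks can be called at 1 place.

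The series holds 18 samples of unstimulated BMDM from male mice, grown from marrow in medium with L929 cell supernatant. WT samples were labelled C57BL6, mdx samples Dmdmdx-4Cv (a dystrophin mutant line with muscular dystrophy), and mdxTLR4-/- samples (mdx mice that also lack Toll-like receptor 4, named mTLR4 in most labels) Bl6/Bl10. H3K27me3 was measured in 2 ChIP and 2 input libraries per genotype, and H3K27ac in 2 WT, 2 mdx and 1 mdxTLR4-/- ChIP libraries with 1 input library. Labelled ages were 12 to 17 weeks for H3K27me3 ChIP, 6 to 11 weeks for its inputs and 18 to 23 weeks for the H3K27ac libraries. No age is labelled more than once and they form an unbroken run of weeks, so they may not be the real ages. If they are, age cannot be told apart from genotype or mark. By the methods, the lines used, TLR4-/- and mdx mice included, were C57BL/6J, which differs from the label Bl6/Bl10. Each mark and genotype is 1 list of peaks with their ChIP read counts, with no spread between mice and no test of a genotype difference. The WT H3K27ac peaks held 266063 reads and the WT H3K27me3 peaks 8315029 reads. Both the mdx and the mdxTLR4-/- H3K27ac lists were smaller than that of WT (11581 and 12204 peaks against 14962). Both H3K27me3 lists were larger (41558 and 36294 peaks against 28024), which bears on how often each mark was called again. Intervals are 95% Wilson intervals and cover counting error only. The peak lists carried the marks of macrophages. In WT an H3K27ac peak lay at the start (within 1 kb) of 13 of 16 macrophage lineage factors. It lay at 13 of 16 macrophage surface and effector genes, beside 5977 of all 20807 protein-coding genes. The counts were 0 of 10 T cell, 0 of 7 B cell, 0 of 5 dendritic cell and 0 of 9 fibroblast genes. They were 1 of 10 neutrophil genes and 1 of 6 erythroid genes. Beside the count over all genes, 0 in so short a list says little of other cells.

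The sequences behind some of the strongest cases inside and at an edge, repeats included, are shown first. Each is a 150-base stretch near the middle of the doubly marked overlap, 5′ to 3′ on the plus strand of GRCm38 (mm10), with CG dinucleotides in capitals. Hjurp (a histone chaperone of the centromere, chr1:88277226-88277375, over an exon) and Col1a1 (a chain of collagen type I, chr11:94950526-94950675, over an exon in the gene body) are the peaks with most H3K27ac reads that lie wholly inside an H3K27me3 peak and hold no 31-base word that occurs elsewhere on the chromosomes.
Hjurp: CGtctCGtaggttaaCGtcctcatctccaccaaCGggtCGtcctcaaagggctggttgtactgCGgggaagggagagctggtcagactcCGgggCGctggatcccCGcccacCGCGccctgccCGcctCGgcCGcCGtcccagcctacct
Col1a1: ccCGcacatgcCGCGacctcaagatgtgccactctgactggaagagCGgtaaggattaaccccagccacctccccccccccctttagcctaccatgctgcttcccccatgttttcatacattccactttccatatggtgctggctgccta
The Hjurp stretch held 15 CG and the Col1a1 stretch 4. Pde4a (a phosphodiesterase that degrades cyclic AMP, chr9:21166726-21166875, in an intron), Tspoap1 (a protein that binds the mitochondrial translocator protein TSPO, chr11:87760326-87760475, outside genes) and Dbp (a clock-controlled transcription factor, chr7:45704339-45704488) are peaks at the edge of an H3K27me3 peak. The Dbp stretch lies before the annotated start of Dbp, in an intron of a different gene.
Pde4a: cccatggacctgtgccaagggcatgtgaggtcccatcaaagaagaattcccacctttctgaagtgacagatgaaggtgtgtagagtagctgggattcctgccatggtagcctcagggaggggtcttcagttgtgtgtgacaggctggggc
Tspoap1: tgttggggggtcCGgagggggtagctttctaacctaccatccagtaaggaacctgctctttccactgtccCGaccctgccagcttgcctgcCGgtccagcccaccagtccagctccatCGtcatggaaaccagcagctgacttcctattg
Dbp: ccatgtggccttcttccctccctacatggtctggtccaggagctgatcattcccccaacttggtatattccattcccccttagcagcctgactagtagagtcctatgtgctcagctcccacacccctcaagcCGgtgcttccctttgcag
The last pair lie inside an H3K27me3 peak. They are from the peak named for the RNA gene Gm42418, where GENCODE also annotates a ribosomal RNA gene (chr17:39845826-39845975, over an exon of the neighbouring RNA gene Gm26917), and a tandem repeat in an intron of Btbd11 (chr10:85415926-85416075).
Gm42418: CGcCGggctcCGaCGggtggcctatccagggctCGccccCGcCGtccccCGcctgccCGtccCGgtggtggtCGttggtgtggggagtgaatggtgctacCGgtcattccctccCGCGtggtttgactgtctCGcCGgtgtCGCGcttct
Btbd11: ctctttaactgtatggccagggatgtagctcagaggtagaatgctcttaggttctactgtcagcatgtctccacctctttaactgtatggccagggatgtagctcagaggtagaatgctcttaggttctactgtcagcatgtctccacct
The Btbd11 stretch holds 0 CG, while the Gm42418 stretch holds 18.

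Doubly marked peaks were densest at the margins of H3K27me3. Of the 339, 175 crossed 1 end of an H3K27me3 peak (51.6%, 46.3 to 56.9%), 157 lay wholly inside one (46.3%, 41.1 to 51.6%), 5 bridged 2 H3K27me3 peaks and 2 enclosed a whole one. The overlap was short, with a median of 600 bp and 87 peaks sharing just the 200 bp of a single window. Cut into windows of 200 bp, the outermost windows of WT H3K27me3 peaks lay under a doubly marked peak 35.5 times per 10000, those 200 to 800 bp in 21.2 times, those 1000 to 1800 bp in 10.8 times, those 2000 to 4800 bp in 8.27 times and those deeper still 6.95 times. Peaks inside lay a median of 2400 bp from the nearer end (quartiles 800 and 7200 bp). The touched H3K27me3 peaks were longer than the untouched ones (medians 9500 and 5400 bp) and denser (30.0 and 24.5 reads per kb), and 8 of them were touched more than once.

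**Figure D1:**
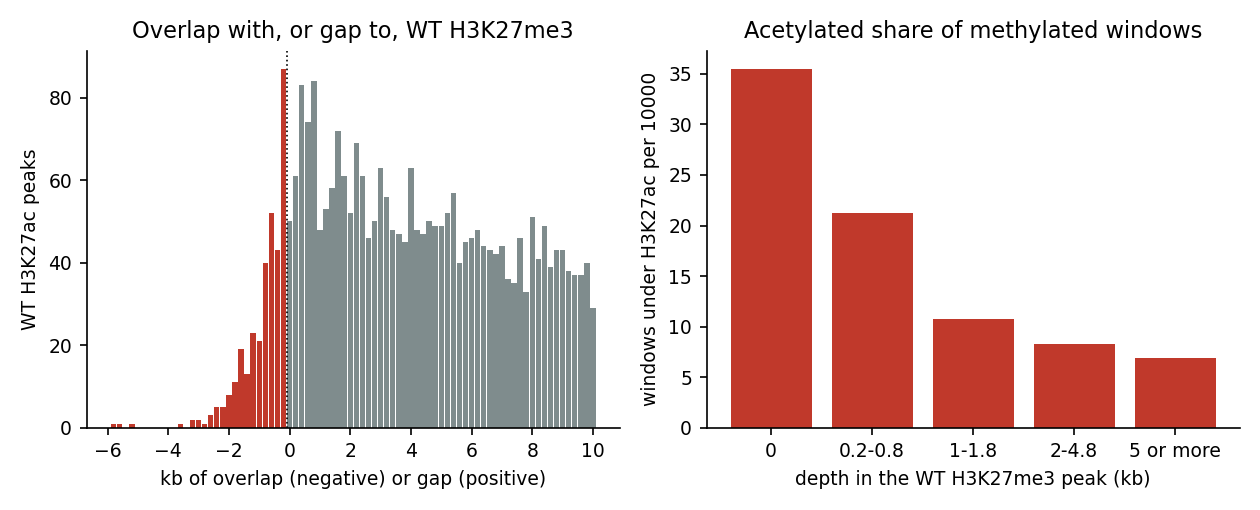
Left, number of WT H3K27ac peaks by the overlap with WT H3K27me3 (red, negative, 339 peaks) or by the gap to the nearest WT H3K27me3 peak (grey, up to 10 kb), in steps of 200 bp; right, share of 200 bp windows of WT H3K27me3 under WT H3K27ac, per 10000, by depth from the nearer end in kb. The overlap is most often 200 bp (87 peaks), and the share falls from 35.5 per 10000 at the outermost window to 6.95 at 5 kb or deeper.

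Peaks just inside and just outside the threshold of 1 bp are given as a description. Beside the 87 peaks with 200 bp of overlap there were 111 WT H3K27ac peaks that abutted an H3K27me3 peak or lay 200 bp away. The first had a median of 7 WT H3K27ac reads and the second of 10. H3K27me3 was called over 54.0% of the first in mdx and 50.6% in mdxTLR4-/- BMDM, and over 14.4% and 9.91% of the second. H3K27ac was called over 23.0% and 31% of the first, and over 48.6% and 51.4% of the second.

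Most doubly marked peaks were weak in H3K27ac. The median was 8 reads, against 11 in the 14623 other WT H3K27ac peaks, and 216 of 339 held fewer than 10 reads. Peaks inside H3K27me3 were shorter and weaker (median 800 bp and 7 reads) than those at an edge (2000 bp and 10 reads). Per kb the order was the reverse, with medians of 10.0 reads per kb inside and 5.83 at an edge, and the doubly marked and other peaks were close, at 7.27 and 7.14. The strongest was the Gm42418 peak with 148 reads, next came an edge peak at the RNA gene Gm25890 with 142, in repeated sequence, and an edge peak in P2ry6, a receptor for extracellular UDP, with 88. The weakest held 5. Among chromosomes the share ran from 0.681% of the H3K27ac peaks on chromosome 12 (4 of 587) to 3.59% on chromosome 11 (38 of 1059).

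At genes, 121 doubly marked peaks (35.7%, 30.8 to 40.9%) lay within 1 kb of a gene start, beside 39.7% of all WT H3K27ac peaks. At the start of a protein-coding gene lay 87 (25.7%, 21.3 to 30.6%), fewer than the 34.1% of all WT H3K27ac peaks. Away from gene starts, 94 lay in a gene body (27.7%, beside 29.7% of all) and 124 between genes (36.6%, beside 30.6%). Gene starts were more common at the edges than inside: 63 of 175 edge peaks (36.0%, 29.3 to 43.3%) lay at a protein-coding start, but 22 of 157 inside (14.0%, 9.44 to 20.3%). Edge peaks were also longer and held more H3K27ac reads than those inside, and this comparison was matched for neither. Among peaks of 10 or more reads the share at protein-coding starts was 46.3% for doubly marked peaks (57 of 123, 37.8 to 55.1%) and 45.5% for the other WT H3K27ac peaks.

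By gene list, doubly marked starts were few: 96 of 20807 protein-coding genes (0.461%) had one. Those among the gene lists included Crebbp, an acetyltransferase of H3K27, Sema4c among 55 axon guidance genes, Kcnab2 among 110 ion channel genes, and Tal1, a blood stem cell and erythroid factor, among 6 erythroid genes. At so low a share over all genes a count of 0 in a list is no trait of it. The counts were 0 of 39 Hox genes, of which 38 had H3K27me3 at the start, 1 H3K27ac and 1 both without a shared base, and 0 of 135 other developmental factors, of which 112 had H3K27me3. They were also 0 of 33 chemokine genes, 0 of 19 Toll-like receptors and adaptors, 0 of 8 macrophage activation markers of the study and 0 of 72 cytosolic ribosomal protein genes. Among all 20807 protein-coding genes, 5808 had H3K27me3 at the start in WT and 5977 H3K27ac.

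In the other genotypes most doubly marked peaks carried 1 mark. H3K27me3 was called over 193 in mdx BMDM (56.9%, 51.6 to 62.1%) and over 203 in mdxTLR4-/- BMDM (59.9%, 54.6 to 65.0%), beside 1.8% and 1.86% of all WT H3K27ac peaks. An H3K27ac peak was called at 109 (32.2%, 27.4 to 37.3%) and at 113 (33.3%, 28.5 to 38.5%), beside 52.9% and 55% of all WT H3K27ac peaks. Both marks were called at 42 in mdx (12.4%, 9.30 to 16.3%) and 52 in mdxTLR4-/- (15.3%, 11.9 to 19.6%), beside 0.461% and 0.501% of all WT H3K27ac peaks, and neither at 79 and 75. Here both marks means that each touched the WT peak, and at 30 of the 42 and 34 of the 52 they also shared bases with each other. Set side by side, 106 peaks had H3K27me3 alone in both, 41 had H3K27ac alone in both, 27 had both marks in both and 33 had neither in both. Opposite single marks were rare: 6 had H3K27ac alone in mdx and H3K27me3 alone in mdxTLR4-/-, and 5 the reverse. Both genotypes are set against the same WT lists.

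**Figure D2:**
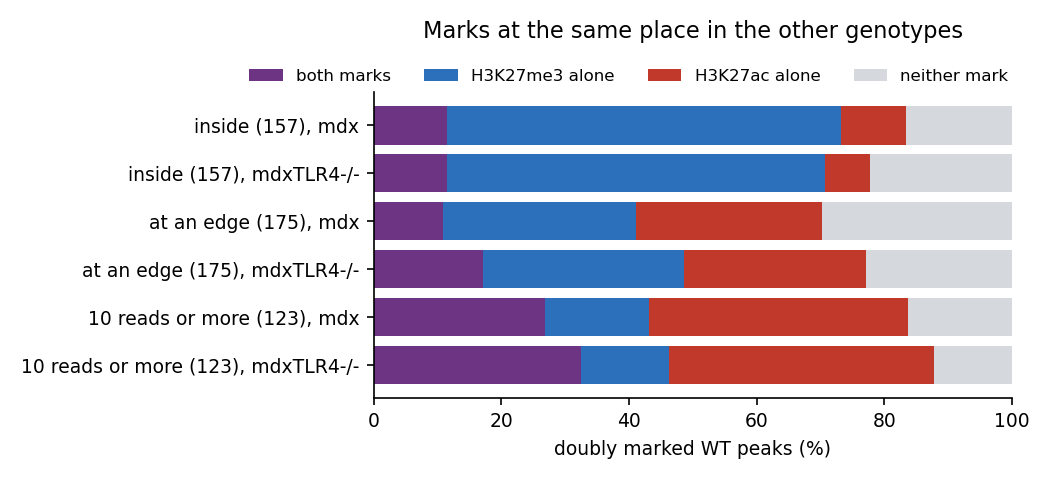
Share of WT doubly marked peaks (%) with both marks, one mark or neither at the same place in mdx or mdxTLR4-/- BMDM, for the 157 inside, the 175 at an edge and the 123 of any placement with 10 or more WT H3K27ac reads (29 inside, 89 at an edge, 3 bridging and 2 enclosing). H3K27me3 alone is the most common state inside (61.8% in mdx, 59.2% in mdxTLR4-/-), and H3K27ac alone among the stronger peaks (40.7% and 41.5%).

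The state differed by place, and H3K27ac also by reads. Inside, H3K27me3 was called over 115 of 157 peaks in mdx (73.2%, 65.8 to 79.6%) and 111 in mdxTLR4-/- (70.7%, 63.2 to 77.3%), and H3K27ac at 34 (21.7%, 15.9 to 28.7%) and 29 (18.5%, 13.2 to 25.3%). At the edges H3K27me3 was called over 72 of 175 (41.1%, 34.1 to 48.5%) and 85 (48.6%, 41.3 to 55.9%), and H3K27ac at 70 (40.0%, 33.0 to 47.4%) and 80 (45.7%, 38.5 to 53.1%). At protein-coding starts H3K27ac was called at 51 of 87 in mdx (58.6%, 48.1 to 68.4%) and 57 in mdxTLR4-/- (65.5%, 55.1 to 74.7%), against 23.0% and 22.2% of the 252 elsewhere. The other WT H3K27ac peaks at protein-coding starts had one more often still, 74.7% and 78.9%.

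Much of the low recall of H3K27ac went with low reads. Of the 84 doubly marked peaks of 5 or 6 reads, 0 had an H3K27ac peak in mdx (interval 0 to 4.37%) and 2 in mdxTLR4-/- (2.38%, 0.655 to 8.27%), against 12.2% and 13.4% of the 1333 other peaks of those reads. At like reads, and on few peaks, the order of inside and edge peaks varied: in mdx an H3K27ac peak was called at 9 of 45 inside and 8 of 60 at an edge at 7 or 8 reads, at 7 of 13 and 9 of 27 at 9 or 10 reads, and at 6 of 12 and 20 of 37 at 11 to 15 reads. In mdxTLR4-/- the counts were 2 of 45 and 8 of 60, 5 of 13 and 11 of 27, and 8 of 12 and 22 of 37. For all doubly marked peaks at 7 or 8 reads the shares were 16.8% (18 of 107) and 10.3% (11 of 107) against 23.6% and 24.7%. From 9 reads up the intervals of the doubly marked peaks held the value of the other peaks with 1 exception, 72.7% (55.8 to 84.9%) against 85.9% in mdx at 16 to 25 reads. All 24 doubly marked peaks of 26 or more reads had an H3K27ac peak in both genotypes. Where WT and mdx both had a peak, the median ratio of mdx to WT reads per kb was 0.838 at the doubly marked and 0.867 at the other peaks, and for mdxTLR4-/- 0.857 and 0.850, unscaled for depth.

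**Figure D3:**
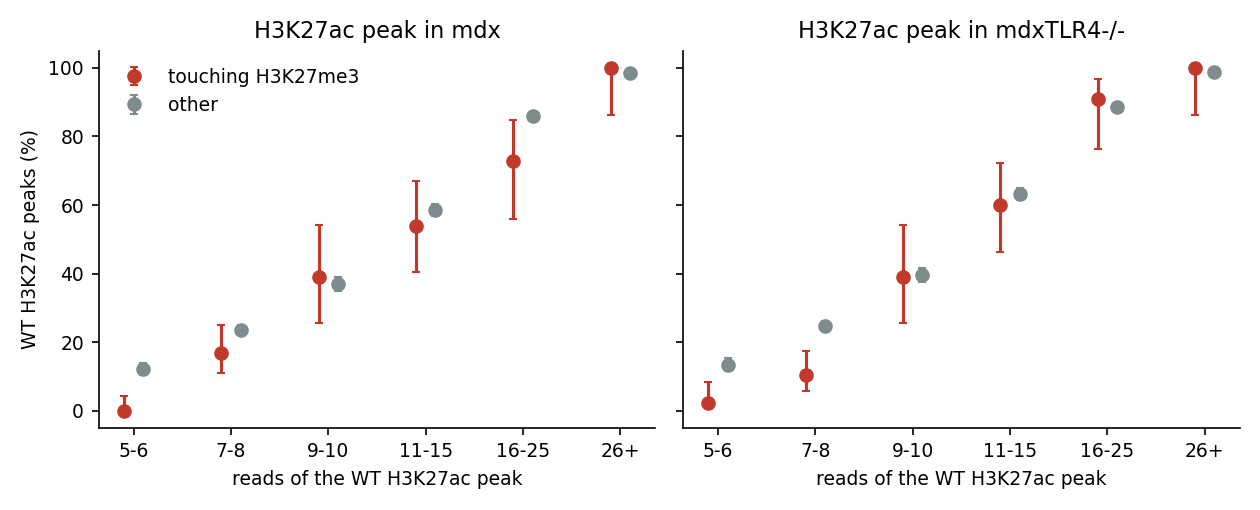
Share of WT H3K27ac peaks (%) that had an H3K27ac peak in mdx (left) or mdxTLR4-/- BMDM (right), by the reads of the WT peak, for the 339 doubly marked peaks (red) and the 14623 others (grey); bars are 95% Wilson intervals. Doubly marked peaks lie below the others at 5 to 8 reads, and both reach 98.5% or more at 26 or more reads.

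H3K27me3 was called less often over the acetylated bases than over the rest of the same domains. Of all WT H3K27me3 peaks, 91.2% had an H3K27me3 peak in mdx and 82.8% in mdxTLR4-/-. By 200 bp window, 50.3% of the 1485 windows under a doubly marked peak were covered in mdx and 56.5% in mdxTLR4-/-, while 90.4% and 87.7% of the other 30769 windows of the same peaks were. At 5 kb or more from an end, 69.7% and 72.4% of acetylated windows were covered, against 96.4% and 95.6% of the others in those domains. In the outermost window the values were 24.6% and 32.2%, against 55.7% and 46.2%. The shares over all windows are not matched for depth. By length of the WT domain, acetylated windows were set against all other WT H3K27me3 windows. In domains under 5 kb, 53.4% of acetylated windows were covered in mdx and 54.8% in mdxTLR4-/-, against 64.6% and 50.9%, so the order turned in mdxTLR4-/-. In longer domains acetylated windows had the lower share in both genotypes. Windows of 1 peak are not independent, so no interval is given.

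**Figure D4:**
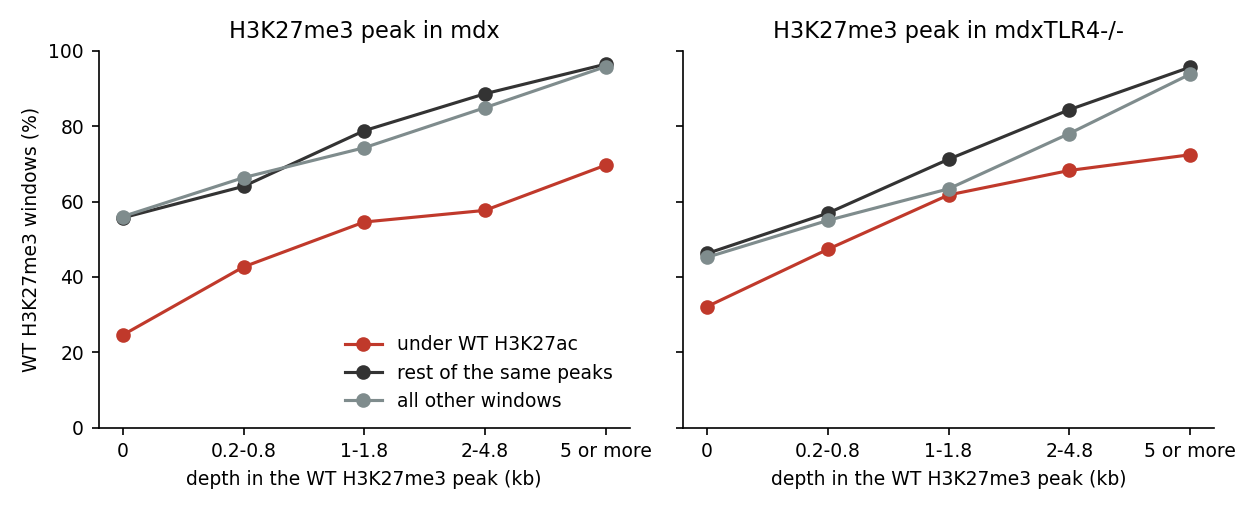
Share of 200 bp windows of WT H3K27me3 peaks (%) covered by an H3K27me3 peak in mdx (left) or mdxTLR4-/- BMDM (right), by depth from the nearer end in kb, for windows under a doubly marked peak (red), the other windows of the same H3K27me3 peaks (black) and all other WT H3K27me3 windows (grey). The red points are the lowest at each depth in both genotypes, from 24.6% to 69.7% in mdx.

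The ends of the domains were compared in the same way. Each of the 175 edge peaks crossed 1 end of its own H3K27me3 peak, and 159 of those domains had H3K27me3 in mdx and 159 in mdxTLR4-/-. At the acetylated end the mdx H3K27me3 stopped short of the WT end in 119 domains, by a median of 600 bp over all 159, whereas at the other end it stopped short in 68 and the median was 200 bp beyond the WT end. In mdxTLR4-/- BMDM it stopped short in 107 at the acetylated end (median 600 bp) and in 81 at the other end (median 200 bp). Over both ends of every WT H3K27me3 peak with one in the other genotype, 38.7% stopped short in mdx and 45.4% in mdxTLR4-/-, with medians of 0 bp. The acetylated end was chosen for reaching an H3K27ac peak in WT and the other end was not. Slfn5, an interferon-induced gene of the Schlafen family, was one case: the mdx H3K27me3 stopped 2600 bp short of the WT end at the gene start and ran 3400 bp past it at the other, and the mdxTLR4-/- H3K27me3 stopped 1400 and 1800 bp short. At Cmklr1, the receptor of chemerin, it stopped 800 bp short and ran 1400 bp past in mdx, and 1200 bp short and 1200 bp past in mdxTLR4-/-. At Dbp both ends stopped short by 1600 bp in mdx.

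Inside the domains the H3K27me3 of the other genotypes mostly ran through. It covered the whole doubly marked peak in 92 of 157 cases in mdx and 87 in mdxTLR4-/-, and a part of it in 23 and 24. A hole with H3K27me3 on both sides was seen in 11 and 11, H3K27me3 on 1 side in 21 and 24, and none in the span of the WT domain in 10 and 11.

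The 10 strongest edge peaks at protein-coding starts had an H3K27ac peak in each genotype. Tspoap1 held 72 WT, 44 mdx and 42 mdxTLR4-/- H3K27ac reads. Dbp had 57, 33 and 29. Stk11ip, which encodes a partner of the kinase LKB1, had 40, 33 and 37. H3K27me3 reached 400 bp into the WT peak at Tspoap1, 600 bp at Dbp and 400 bp at Stk11ip, and in neither other genotype did it touch these peaks. Pes1, a ribosome biogenesis factor, had 36, 36 and 28 reads, and Cmklr1 had 37, 39 and 13. Of the 10 strongest edge peaks at protein-coding starts, 6 had H3K27ac alone in both other genotypes. At Pde4a both marks touched the WT peak in each list but did not share bases with each other in the other genotypes, with 73, 34 and 33 H3K27ac reads and 227, 188 and 181 reads of the H3K27me3 peak that touched it. Read counts of different lists belong to peaks of different length and are not scaled for depth.

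**Figure D5:**
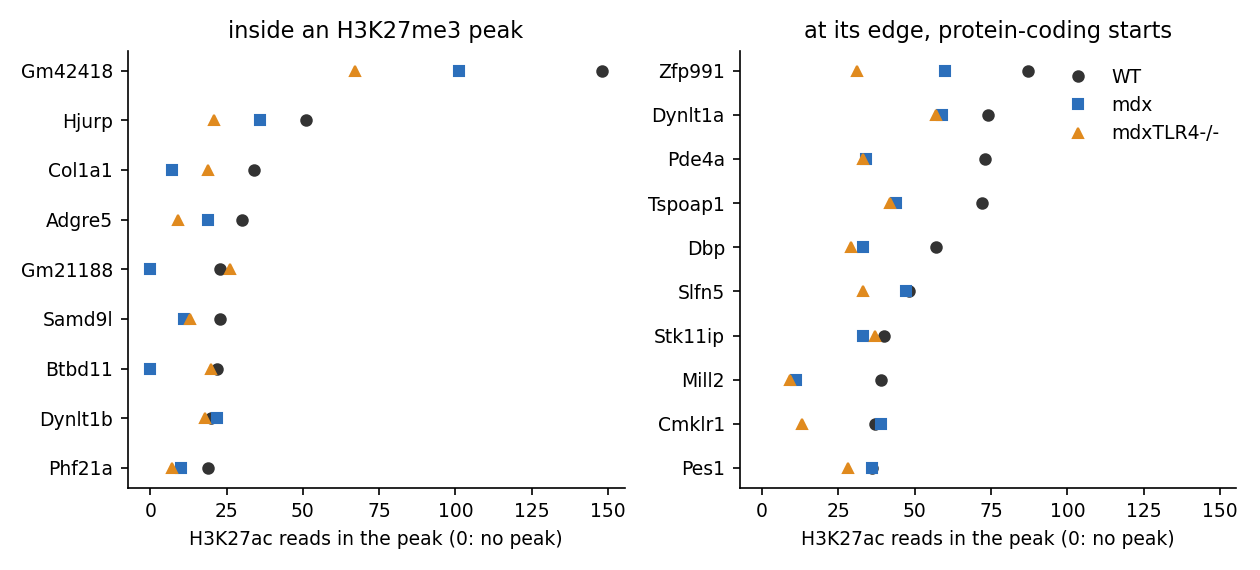
H3K27ac reads of the peak in WT (circles), and of the peaks that touch it in mdx (squares) and mdxTLR4-/- BMDM (triangles), for 9 of the 10 strongest doubly marked peaks inside H3K27me3 (left) and the 10 strongest at an edge and a protein-coding start (right); 0 means no peak. Genes name the start, gene body or nearest start, and all but Gm21188 and Btbd11 have H3K27ac reads in each genotype.

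At 27 doubly marked peaks both marks also touched the WT peak in mdx and in mdxTLR4-/-, 11 of them inside an H3K27me3 peak in WT, and 15 of the 27 were at protein-coding starts. Touching the same WT peak does not mean sharing bases: an H3K27ac peak there shared bases with H3K27me3 of its own genotype at 20 of the 27 in mdx, at 19 in mdxTLR4-/- and at 17 in both. Hjurp, Tal1, C1qa and Dgat2 were among the 17, Manbal was not in either genotype, and Atp5g2 was in mdx alone. The peak at the starts of Hjurp and of Trpm8, a cold-sensing ion channel, had 51, 36 and 21 H3K27ac reads inside an H3K27me3 peak of 53200 bp. Tal1 had 10, 15 and 11 reads. C1qa, a subunit of complement C1q made by macrophages, enclosed an H3K27me3 peak of 3600 bp and had 17, 101 and 10 H3K27ac reads, where the mdx peak was longer (4.05 reads per kb in WT and 9.02 in mdx). Manbal had 20, 18 and 7 reads, Atp5g2, a subunit of ATP synthase, 30, 12 and 14, and Dgat2, an enzyme of triglyceride synthesis, 12, 11 and 11.

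Other members varied by genotype. At Speg, a muscle kinase gene, the WT peak of 23 reads in the gene body had H3K27me3 alone in mdx and H3K27ac alone (10 reads) in mdxTLR4-/-. Man2b2, a lysosomal mannosidase, went from 20 WT reads to no mdx peak, with a peak of 10 reads in mdxTLR4-/-. Peaks at the starts of Sema4c, Chst15 and Bahcc1 held 16, 14 and 15 reads in WT and 9, 7 and 7 in mdxTLR4-/-. No mdx H3K27ac peak touched these peaks, and in mdx H3K27me3 touched each. Kcnab2, a potassium channel subunit, had 11, 19 and 0 reads, and Crebbp had 8, 0 and 5. The longest overlaps were 5800 bp at Gm42418, 5600 bp in Btbd11 and 5200 bp nearest to Nfe2l3, where the peak bridged 2 H3K27me3 peaks and had 31, 8 and 16 reads. The Btbd11 peak had 22 reads in WT, neither mark in mdx and 20 H3K27ac reads with H3K27me3 in mdxTLR4-/-. A second doubly marked peak at the same annotated start of Bahcc1 had 12, 8 and 10 reads and both marks throughout. The start of Bahcc1 was thus not without H3K27ac in mdx. Such differences rest on single lists in which the smallest peaks hold 5 reads in WT. At protein-coding starts 16 of the 87 had H3K27me3 alone in both genotypes, among them Cd40, a co-stimulatory receptor of antigen-presenting cells, Arg2, an arginase, Epas1, which encodes the hypoxia factor HIF-2α, and Ren1, which encodes renin, all with 6 or 7 WT H3K27ac reads. The Arg2 peak is repeated sequence, with 90.3% of its 31-base words found more than once. These 4 were chosen after their values were seen.

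Reads from repeated sequence cannot be placed with certainty, and the part of this in the double marks was not tested. In 78 of 339 doubly marked peaks (23.0%, 18.8 to 27.8%) 50% or more of the 31-base words occurred more than once on the chromosomes of GRCm38, against 19.3% of the other WT H3K27ac peaks, and at protein-coding starts in 9 of 87 (10.3%, 5.54 to 18.5%) against 2.93%. Inside H3K27me3 it was 43 of 157 (27.4%, 21.0 to 34.8%). Of the 29 peaks inside with 10 or more reads, 13 were repeated by this measure and 10 had under 10% of such words. Among those 10 were Hjurp, Col1a1, Selenow, Chst15, Ccr7, Bahcc1, Meox1, Cacna1a and Tal1 (Ccr7 and Meox1 being the nearest starts, and Col1a1 and Cacna1a gene bodies), and 5 of the 10 had both marks in each genotype. Without the repeated peaks, an alternative chosen after the data were seen, the shares were 34.5% with H3K27ac in mdx and 36.4% in mdxTLR4-/-, and 58.2% and 54.8% with H3K27me3, which turns the order of the genotypes for H3K27me3. Among the 78 repeated peaks H3K27me3 was called over 41 in mdx and 60 in mdxTLR4-/-.

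Several repeats recurred. The Gm42418 peak on chromosome 17, which overlaps an annotated ribosomal RNA gene, lay in the densest WT H3K27me3 peak of all that were touched, 695 reads per kb, with 148, 101 and 67 H3K27ac reads in WT, mdx and mdxTLR4-/-, and a peak at chr6:3200801-3201600 that shares sequence with it had 288 reads per kb and 23, 11 and 13 H3K27ac reads. Of their 31-base words, 15.0% at Gm42418 and 61.7% at the chromosome 6 peak occurred more than once. Words were counted on the assembled chromosomes alone, so any copies missing from them are not in these shares. A set of 3 peaks of 7 reads each lay among the 5S ribosomal RNA genes of chromosome 8, in 1 H3K27me3 peak of 98000 bp and 250 reads per kb. The words TTAGGG or CCCTAA occurred 10 or more times in 5 of the 339 peaks (1.47%), against 0.301% of the other WT H3K27ac peaks. All 5 lay inside H3K27me3, and Adgre5 (nearest start) and Phf21a were among them. In all, 8 doubly marked peaks (2.36%) lay in an H3K27me3 peak of 100 or more reads per kb, on 5 such peaks. These are 5 of the 332 touched H3K27me3 peaks (1.51%), and WT BMDM had 16 among all 28024 (0.0571%). A family of 6 peaks on 6 chromosomes, nearest to Gm12840, Rhbdd2, Cks2, Msmb, H2-Q10 and Gstp3, shared words found 41 to 52 times, lay inside H3K27me3 in 6 of 6 cases and shared those words with 57 other WT H3K27ac peaks.

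Gene clusters, several with copies that share sequence, made up a further part, and the placing of reads among such copies is uncertain. The Cd300ld genes of chromosome 11, receptors of myeloid cells, had 4 doubly marked starts, Cd300ld2 to Cd300ld5, with 9, 11, 7 and 16 WT reads in the order Cd300ld2, Cd300ld4, Cd300ld5 and Cd300ld3. In mdx H3K27ac was called at 3 of the 4 and in mdxTLR4-/- at 1. The MHC class I genes H2-D1, H2-K1 and H2-Q4, which present peptides on the cell surface, had 31, 14 and 17 WT reads, 25, 19 and 10 mdx reads, and 26, 7 and 7 mdxTLR4-/- reads. At H2-Q4 14.0% of the 31-base words occurred more than once. A run of 5 peaks in or nearest to Gm13691, Gm13694, Gm13695 and Gm13697 on chromosome 2 lay on 1 H3K27me3 peak of 44800 bp, the most on any, and H3K27me3 touched 0 of the 5 in mdx and 5 of 5 in mdxTLR4-/-. Dynlt1a, a dynein light chain gene with copies close by, had 74, 59 and 57 H3K27ac reads, and Zfp991 of the zinc finger cluster of chromosome 4 had 87, 60 and 31.

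In base composition the doubly marked peaks were close to the others. The median GC content was 49.0% against 47.2%, and the ratio of observed to expected CG was 0.299 against 0.280. The 27 peaks with both marks in all 3 genotypes had a median ratio of 0.584, where doubly marked peaks at protein-coding starts had 0.542 and other WT H3K27ac peaks at such starts 0.609, and those inside H3K27me3 without H3K27ac in either other genotype one of 0.220, with 36.8% of their bases masked as repeats. A set of 3 macrophage motifs were searched on both strands in the middle 300 bases: the PU.1 word GAGGAAGT, the AP-1 word TGANTCA and the C/EBP word TTGCGCAA. They were present in 2.95%, 7.08% and 0.295% of the doubly marked peaks and in 3.97%, 9.50% and 0.0936% of all WT H3K27ac peaks.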

How the data were processed

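Chromatin was digested with micrococcal nuclease. The authors mapped H3K27me3 and input reads to mm10 with Bowtie2, merged replicates and called peaks with SICER2 (windows of 200 bp, gaps of 600 bp, FDR 0.01). H3K27ac was analysed by the same general procedure, and its lists carry the same settings in the labels. The submitters' processing notes give CASAVA 1.8, cutadapt 1.15, Bowtie2 2.3.4 and SICER 2.0. The deposited lists hold positions and a count of ChIP reads per peak, unscaled and without input subtraction. The depth of the libraries and the treatment of duplicate reads are not given in the sources used here. The lists used here were those of chromosomes 1 to 19. A mark was called present in another genotype where its peak shared at least 1 bp with the doubly marked peak. Genes were those of GENCODE vM21 (51229, of which 20807 protein-coding), a start being within 1 kb. Sequence came from RefSeq GRCm38.p6, the build of the files, and printed stretches were moved to the nearest 150 bases free of untranslated exons. Words of 31 bases were counted on both strands, and peaks sharing 30% of words were put in 1 family. Genes named were the 10 strongest inside and at edges, the 10 longest overlaps, the strongest losses of either mark, the promoters with both marks throughout and list members. Other genes, named for repeats, gene clusters or lack of repeats, were chosen after their values were seen. Members and lists were chosen with earlier results of these data known. No test was made, since each list is 1 observation. The code was tested on simulated peaks. Python 3.11.15, numpy 2.4.6, pandas 2.3.3 and matplotlib 3.10.9 were used. Some genes and sequences are not reported here.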

Additional observations from a re-analysis of the deposited data

How the results depend on the processing

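Of 60 values over 9 shares and 10 alternatives, 27 stayed within the 95% interval of the reported value and 33 moved out of it. Including X and Y, or leaving out repeated peaks, moved none of the 9, but leaving out repeated peaks turned the order of the genotypes for H3K27me3 (58.2% in mdx and 54.8% in mdxTLR4-/-). In the order of the share touched, inside, at a gene start, H3K27ac in mdx and mdxTLR4-/-, H3K27me3 in both and both marks in both, peaks of 10 or more reads gave 1.44%, 23.6%, 59.3%, 67.5%, 74.0%, 43.1%, 46.3%, 26.8% and 32.5%, so that H3K27ac became the more often recalled mark. With 50% of the peak under H3K27me3 the first 7 were 1.44%, 72.7%, 26.9%, 24.5%, 24.1%, 69.0% and 69.0%. With lists of equal size 52.9% lay inside, 38.8% had H3K27ac in mdxTLR4-/-, and H3K27me3 was over 49.4% and 53.3%. Where a mark had to cover 50% of the peak, H3K27ac gave 24.2% and 25.1%, H3K27me3 39.5% and 42.2%, and both marks 5.31% and 6.49%. Peaks within 600 bp gave H3K27me3 at 77.0% and 73.5% and both marks at 22.1% and 22.7%. Joining H3K27me3 across 2 kb put 57.4% inside. Gene starts within the peak itself gave 27.1%, and protein-coding starts 25.7%. No paired analysis was possible because each mark and genotype is 1 list without replicate columns. Low H3K27ac reads limit every statement on a single peak.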

Other observations

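The other 2 genotypes had doubly marked peaks of their own. In mdx BMDM 221 of 11581 H3K27ac peaks (1.91%, 1.67 to 2.17%) shared bases with an mdx H3K27me3 peak, and in mdxTLR4-/- BMDM 202 of 12204 (1.66%, 1.44 to 1.90%), against 2.27% in WT. Of these, 36 and 40 touched a doubly marked peak of WT. Their median H3K27ac reads were 7 and 6, against 10 and 8 over all peaks of those lists. Wholly inside an H3K27me3 peak lay 123 and 104. On the X chromosome 0 of 470 WT H3K27ac peaks (interval 0 to 0.811%) touched H3K27me3. How many WT H3K27me3 peaks lie on X is not given here, so this 0 is not read as a trait of that chromosome.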
